A study of Mus musculus with 7 samples.

Results

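The genes described here are 40 members of the Hippo pathway and of the apical polarity and junction machinery, measured in mouse embryonic cortex after editing of the cyclin D2 gene Ccnd2. They were taken by name from 41 listed genes, keeping those whose mean normalized count in the authors' deposited table reached 10, out of 25239 genes. The list covers the PAR, Crumbs and Scribble polarity genes, catenins with a junction scaffold, and the genes from the Fat and Dachsous protocadherins to YAP, TAZ and the TEAD factors. Only Crb3 was below the minimum, at 4.70 normalized counts, and the members just above it were Llgl2 at 17.6 in the deposited table and then Tead4.

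The Hippo pathway is a kinase chain that restrains growth. STK3 and STK4 with their partner SAV1 activate LATS1 and LATS2 with MOB1, and the LATS kinases phosphorylate the coactivators YAP and TAZ and keep them out of the nucleus, where they would otherwise act with TEAD transcription factors. In the developing cortex the same proteins meet the polarity machinery at the apical end feet of radial glia, the stem cells that line the ventricle. There Crumbs and PAR proteins and the catenins of the adherens junction belt define the apical surface. These links act largely on proteins, through phosphorylation and location, which RNA levels do not record.

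Polyadenylated RNA was sequenced from the transfected cortex of 7 C57BL/6J embryos, 3 given the Breasi-CRISPR edit Ccnd2 Thr280Ala and 4 given a Breasi-CRISPR silent control. All 7 were electroporated in utero at E13.5 and collected at E15.5, and their labelled genotype before editing is wildtype. The 3 litters held 1 edited brain each. Litter 1 also held 2 controls, and litters 2 and 3 held 1 control apiece. The edit reaches only electroporated cells, so each sample mixes edited and unedited cells. The change made by the silent control was not given in the sources used here. With 1 comparison, the deposited table gives no value per brain, so levels here are means over all 7 libraries and changes are log2 fold changes with a standard error (SE), positive where the edited brains were higher. Estimated depths were 20800000 to 32800000 reads in edited libraries and 19400000 to 29000000 in controls. The total transcript of Ccnd2 stood at 0.08 (SE 0.25, 95% interval -0.42 to 0.58, DESeq2 adjusted p = 0.999) on the log2 scale in the deposited table. This interval spans 0.75-fold to 1.5-fold, so the level of Ccnd2 was not tightly measured.

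The comparison asked how these genes differed 2 days after the Ccnd2 edit. None of the 40 passed the authors' deposited DESeq2 test at an adjusted p below 0.05, against 0.246% of the 14638 genes tested. At an unadjusted p under 0.05 there were 2, both higher in the edited brains, Crb2 and Llgl1. That is 5.0% of the members, against 5.86% of all tested genes (2.20% higher and 3.66% lower). Of the 40 members, 26 had a log2 fold change above 0 in the deposited table, or 65.0%, against 48.0% of all tested genes. The median log2 fold change was 0.05 for the members and -0.01 for all tested genes. The tissue was bulk, so fewer cells of a type and less RNA per cell cannot be told apart.

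The sizes were small and the intervals mostly narrow. In the deposited values 35 of 40 members lay within 0.25 of 0 on the log2 scale. The 5 further out were Crb1, Crb2, Llgl2, Fat4 and Tead4. The 95% interval, computed from the deposited SE, lay inside a 1.5-fold change either way for 33 of 40 members (82.5%), against 66.6% of all tested genes. It lay inside a 2-fold change for 37 of 40, and the exceptions were Crb1, Llgl2 and Tead4. The shares of all tested genes within 0.25 of 0 and inside a 2-fold change were not computed. A mean of 1000 normalized counts was reached by 27 of 40 members, and abundant genes have narrower intervals.

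**Figure D1:**
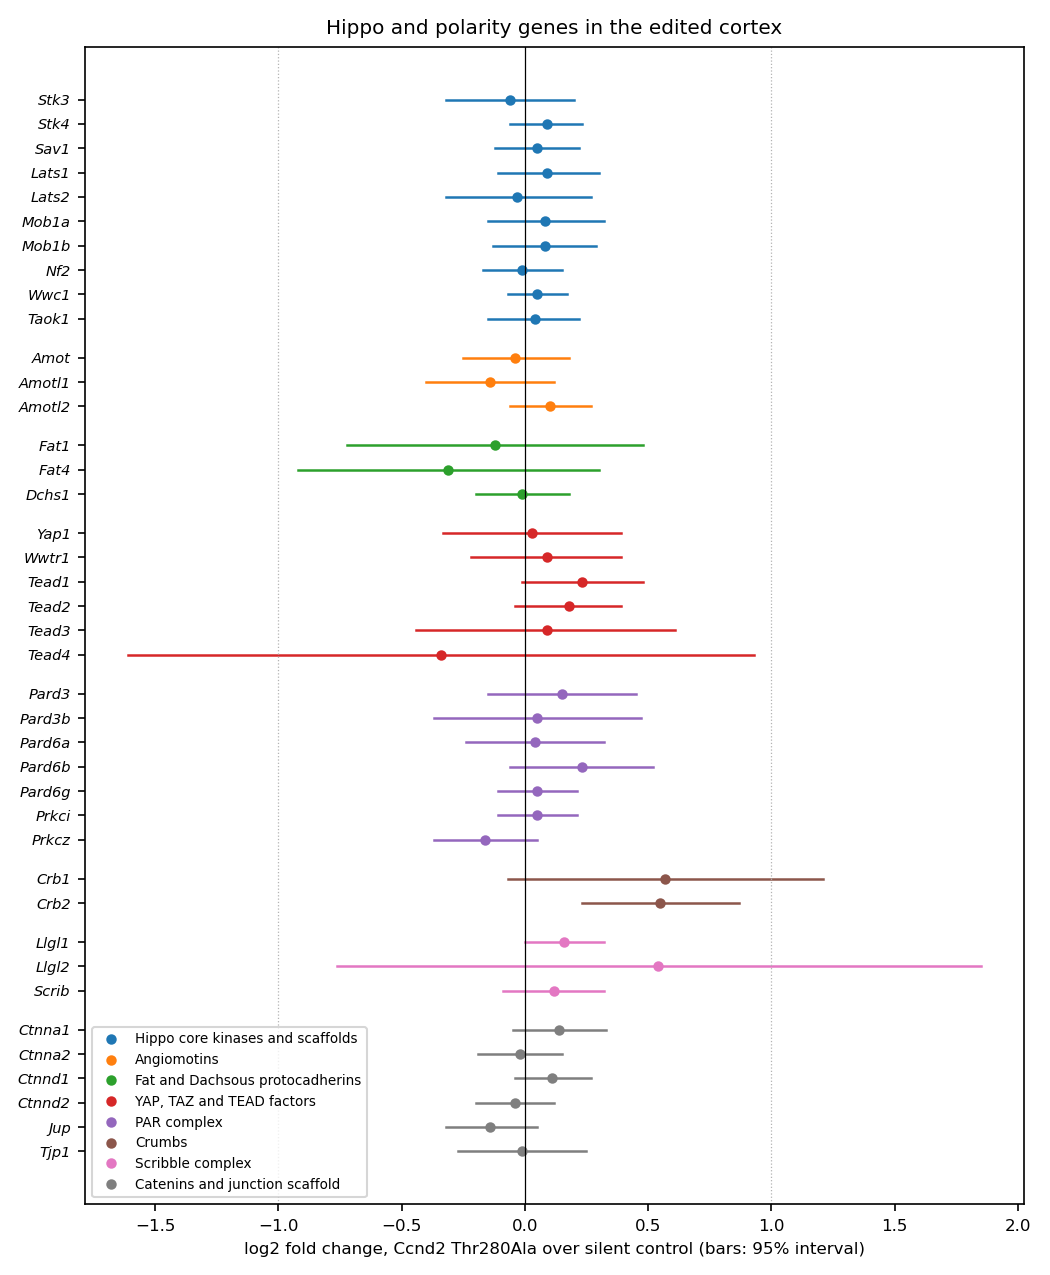
Log2 fold change of each of the 40 genes, edited over silent control, on the horizontal axis, with 95% intervals from the deposited standard errors as bars and dotted lines at 2-fold. Colours mark the role groups. Only Crb2 and Llgl1 have intervals that stay above 0, and those of Tead4 and Llgl2 are the widest.

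Fat4, Fat1 and Dchs1 encode giant cadherins at the top of the pathway. Fat4 and Dchs1 bind each other between neighbouring cells, and loss of either in mouse cortex is known to alter progenitors and neuronal migration. Dchs1 was abundant, with 7135 normalized counts or 646 per kb of exon, and its log2 fold change was -0.01 (SE 0.10, 95% interval -0.20 to 0.18) in the deposited table. Fat4, on chromosome 3 (38886940 to 39011985, plus strand, GRCm38), had 4301 normalized counts and stood at -0.31 (SE 0.31, 95% interval -0.92 to 0.30, DESeq2 adjusted p = 0.999) in the deposited table. Fat1, on chromosome 8, had 1862 normalized counts and stood at -0.12 (SE 0.31, 95% interval -0.72 to 0.48) there. All 3 lay below 0 and none passed the test.

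Both Fat genes had far wider errors than genes of like abundance. The deposited SE of Fat4 was 3.89 times the median SE of 2474 tested genes within 2-fold of its mean, and 99.0% of those genes had a smaller one. For Fat1 the ratio was 3.24, and 98.7% of 4267 such genes had a smaller SE. Dchs1 stood at a ratio of 1.28. Expressed as a coefficient of variation left after litter and treatment, the deposited errors correspond to 27.9% for Fat4 and 27.3% for Fat1. At their means 7.0% and 8.1% are typical. Only litter 1 held 2 brains of the same treatment, so this spread also takes in any difference between litters in the effect of the edit. DESeq2 pulls most genes towards a common dispersion and leaves genes far above it as they are, so the SE of a gene near the common value reflects its own spread only in part. Which brains carried the spread of Fat4 and Fat1 cannot be read from a table with no value per brain, and 8.68% of the exon length of Fat4 also lies under antisense genes. In the same table Ttr, the main transcript of choroid plexus, and Col3a1, a collagen of meningeal fibroblasts, had SE ratios of 24.8 and 13.7. The targeted gene Ccnd2 had a ratio of 3.65. Of the radial glia genes, Sox2 had a ratio of 3.96 and Pax6 one of 1.2. The part of choroid plexus, meninges or any other cell type in the spread of the Fat genes was not tested.

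**Figure D2:**
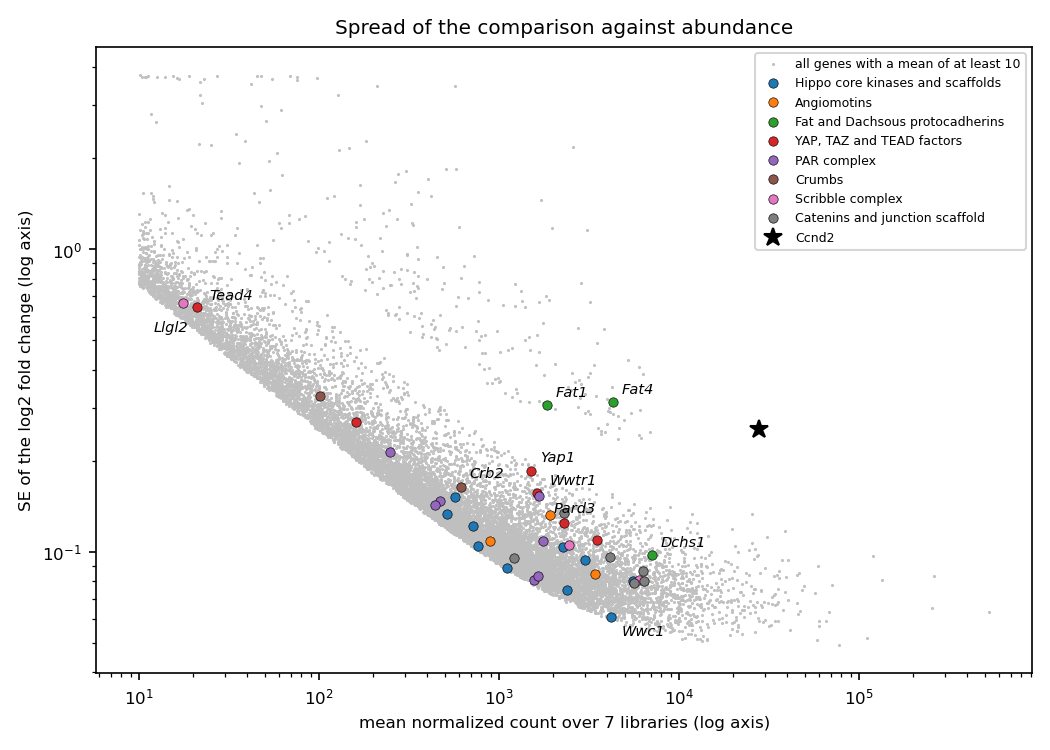
Standard error of the log2 fold change against the mean normalized count, both on log axes, for all tested genes with a mean of at least 10 in grey and for the 40 genes in the colours of their role groups. Fat4 and Fat1 lie in the detached upper cloud with SEs of 0.31, far above Dchs1 at 0.10. Ccnd2 is the black star, and Wwc1 lies at the lower edge.

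The core kinase module stayed close to 0. All 10 genes lay between -0.06 and 0.09, 7 of them above 0, with a median log2 fold change of 0.05. An unadjusted p under 0.05 in the deposited DESeq2 run was reached by 0 of 10, against 5.86% of all tested genes. At that share, 10 genes are too few for a count of 0 to set the module apart. Stk4, which encodes the MST1 kinase, stood at 0.09 (SE 0.07, 95% interval -0.06 to 0.23) in the deposited table. Its paralog Stk3, encoding MST2, stood at -0.06 (SE 0.13, 95% interval -0.32 to 0.20) there. The LATS kinases Lats1 and Lats2 stood at 0.09 (SE 0.10, 95% interval -0.11 to 0.30) and -0.03 (SE 0.15) in the deposited table. Nf2 encodes merlin, a membrane scaffold that brings LATS to its activators, and stood at -0.01 (SE 0.08) in the same table.

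Wwc1, which encodes the scaffold KIBRA, was the most tightly measured member, at 0.05 (SE 0.06, 95% interval -0.07 to 0.17) in the deposited table. Its SE was 0.76 of the median for its abundance, and only 2.4% of like genes had a smaller one. Its interval bounds the difference between edited and control brains at 0.95-fold to 1.13-fold. The adaptor genes Sav1, Mob1a and Mob1b and the upstream kinase gene Taok1 ranged from 0.04 to 0.08 in the deposited table. Per kb of exon, Wwc1 and Nf2 were highest in the module at 845 and 814 normalized counts, and Mob1b lowest at 51.0. Mob1a and Mob1b are close paralogs that could share reads. Exons shared with other genes make up 42.4% of the annotated length of Lats2 and 25.4% of that of Sav1, so those counts are uncertain.

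The angiomotins are junction proteins that hold YAP at the membrane and aid LATS. Amotl2 stood at 0.10 (SE 0.08), Amotl1 at -0.14 (SE 0.13) and Amot, on chromosome X, at -0.04 (SE 0.11) in the deposited table. No interval of the 3 lay clear of 0. Amotl2 was highest per length, at 547 normalized counts per kb, against 191 for Amotl1 and 106 for Amot.

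Among the transcription factors at the end of the pathway, both coactivator genes and 3 of 4 TEAD genes lay above 0, and none passed the test. Tead1 stood at 0.23 (SE 0.12, 95% interval -0.01 to 0.48, DESeq2 adjusted p = 0.881) in the authors' deposited DESeq2 table. Tead2 stood at 0.18 (SE 0.11, 95% interval -0.04 to 0.39, DESeq2 adjusted p = 0.948) there. Tead2 was the main TEAD gene by level, with 737 normalized counts per kb, against 169 for Tead1, 24.0 for Tead3 and 5.83 for Tead4. Tead3 stood at 0.09 (SE 0.27) and Tead4 at -0.34 (SE 0.65) in the deposited table, both too sparse to place.

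Yap1 and Wwtr1 encode the coactivators YAP and TAZ, which bind DNA through TEAD proteins. Yap1, on chromosome 9 (7931999 to 8004596, minus strand, GRCm38), had 1515 normalized counts and stood at 0.03 (SE 0.19, 95% interval -0.33 to 0.39) in the deposited table. Wwtr1, on chromosome 3 (57455649 to 57575910, minus strand), had 1630 normalized counts and stood at 0.09 (SE 0.16, 95% interval -0.22 to 0.39) there. These intervals allow a difference of up to 1.31-fold higher in edited brains for each gene, and down to 0.79-fold for Yap1 and 0.86-fold for Wwtr1. Both genes had larger errors than genes of like abundance. Their deposited SEs were 1.86 and 1.60 times the median for their means, and 97.5% of like genes had a smaller SE than Yap1. Of the 40 members, 5 had a ratio above 1.5, or 12.5%, against 6.21% of all genes with a mean of at least 10. Besides Fat4, Fat1, Yap1 and Wwtr1 the fifth was the polarity gene Pard3, at 1.57.

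TEAD proteins recognise the letters GGAATG, or CATTCC on the other strand. In RefSeq promoter windows of GRCm38.p6, from 250 bases before to 50 after a transcript start, these letters occurred at least once in 9 of the 32 members that had a window (28.1%). They occurred in 14.5% of 11582 tested genes with a window. A gene may have several windows, and counted by window the shares were 26.2% of 42 for the members and 12.3% of 14775 for the tested genes. Windows of a gene can overlap and count the same match again, as the 2 windows of Wwtr1 do. The 9 members with a match were Yap1 and Wwtr1 themselves, Tead3, Mob1a, Sav1, Prkci, Amotl2, Lats2 and Fat1. For the last 3 the window belongs to a start inside the gene, 1132, 12265 and 14761 bases from the outermost start of the GENCODE M21 gene. A match is a string of letters and no measured binding. The windows of the coactivator genes and of Amotl2 and Ccn1, both widely used as YAP and TAZ targets, are shown as the genes at the pathway's output, with the match in capitals. Only windows with a match were eligible to be shown. Of the YAP and TAZ target genes listed below, 4 of the 11 with a window had a match, or 36.4%.
Yap1, chr9:8004547-8004846, minus strand: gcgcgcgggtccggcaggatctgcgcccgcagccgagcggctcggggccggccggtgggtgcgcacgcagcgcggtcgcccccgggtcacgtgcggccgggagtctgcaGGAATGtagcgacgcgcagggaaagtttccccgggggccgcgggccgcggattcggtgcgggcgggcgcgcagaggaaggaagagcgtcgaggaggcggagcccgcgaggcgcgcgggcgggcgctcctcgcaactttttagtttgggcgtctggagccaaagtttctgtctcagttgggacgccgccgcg
Wwtr1, chr3:57575861-57576160, minus strand: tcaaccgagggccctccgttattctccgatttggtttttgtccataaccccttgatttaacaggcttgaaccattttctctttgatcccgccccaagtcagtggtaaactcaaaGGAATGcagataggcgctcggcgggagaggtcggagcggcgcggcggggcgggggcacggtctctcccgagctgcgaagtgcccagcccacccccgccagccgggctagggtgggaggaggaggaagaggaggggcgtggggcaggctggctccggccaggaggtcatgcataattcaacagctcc
Amotl2, chr9:102717554-102717853, plus strand: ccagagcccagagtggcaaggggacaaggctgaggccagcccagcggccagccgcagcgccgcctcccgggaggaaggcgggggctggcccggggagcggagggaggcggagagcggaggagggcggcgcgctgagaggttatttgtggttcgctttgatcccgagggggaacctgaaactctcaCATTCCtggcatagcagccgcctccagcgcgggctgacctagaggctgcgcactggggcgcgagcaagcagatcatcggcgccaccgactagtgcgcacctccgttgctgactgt
Ccn1, chr3:145649936-145650235, minus strand: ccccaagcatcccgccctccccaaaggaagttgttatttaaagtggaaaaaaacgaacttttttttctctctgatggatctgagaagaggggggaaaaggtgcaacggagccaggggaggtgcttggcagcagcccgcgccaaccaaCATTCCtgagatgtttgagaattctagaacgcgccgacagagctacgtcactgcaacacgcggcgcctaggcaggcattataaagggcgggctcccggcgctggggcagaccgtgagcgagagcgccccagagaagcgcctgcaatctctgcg
Counted in bases from the RefSeq start that each window is built on, the match begins at -141 in Yap1, -136 in Wwtr1, -65 in Amotl2 and -103 in Ccn1.

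The transcripts most often used to read YAP and TAZ activity lay on both sides of 0. Of 20 target genes listed besides the members, 18 reached a mean of 10 normalized counts. Of these 8 lay above 0 and 10 below, and their median was -0.09 on the log2 scale. By the deposited DESeq2 values 0 of 18 passed the test over all genes. At an unadjusted p under 0.05 there were 4, 3 higher and 1 lower, against 5.86% of all tested genes. Ccn1, a secreted matricellular protein gene formerly named Cyr61, stood at 0.39 (SE 0.14, DESeq2 adjusted p = 0.428) in the deposited DESeq2 table. Ccdc80 stood at 0.46 (SE 0.15, DESeq2 adjusted p = 0.282) and the kinase gene Nuak2 at 0.39 (SE 0.15, DESeq2 adjusted p = 0.514) there. Myof, a membrane repair gene with only 77.8 normalized counts, stood at -1.25 (SE 0.52, DESeq2 adjusted p = 0.584) in the same deposited table. Ccn2, formerly Ctgf, stood on the other side of 0 from Ccn1, at -0.24 (SE 0.36) in the deposited table. Its interval, from -0.96 to 0.47, is wide, and 23.2% of its exon length lies under an opposite-strand gene. Amotl2 and Lats2, which are targets as well as pathway members, stood at 0.10 and -0.03, as given above from the deposited table.

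Other Hippo genes centred on 0. Of 35 listed, 31 reached a mean of 10 normalized counts. Of these 15 lay above 0 and 16 below, and their median rounds to -0.00 on the log2 scale. By the deposited DESeq2 values 0 of 31 passed the test and 2 had an unadjusted p under 0.05, against 5.86% of all tested genes. Ajuba, a LIM protein that restrains LATS at junctions, stood at 0.35 (SE 0.15, DESeq2 adjusted p = 0.584) in the deposited table. Its relative Limd1 stood at 0.20 (SE 0.11, DESeq2 adjusted p = 0.876) there. Rassf5, an adaptor that binds the STK3 and STK4 kinases, stood at -0.86 (SE 0.39, DESeq2 adjusted p = 0.713) at only 47.2 normalized counts in the deposited table. Stk38, a kinase of the LATS family, stood at 0.15 (SE 0.08, DESeq2 adjusted p = 0.866) in the deposited table.

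**Figure D3:**
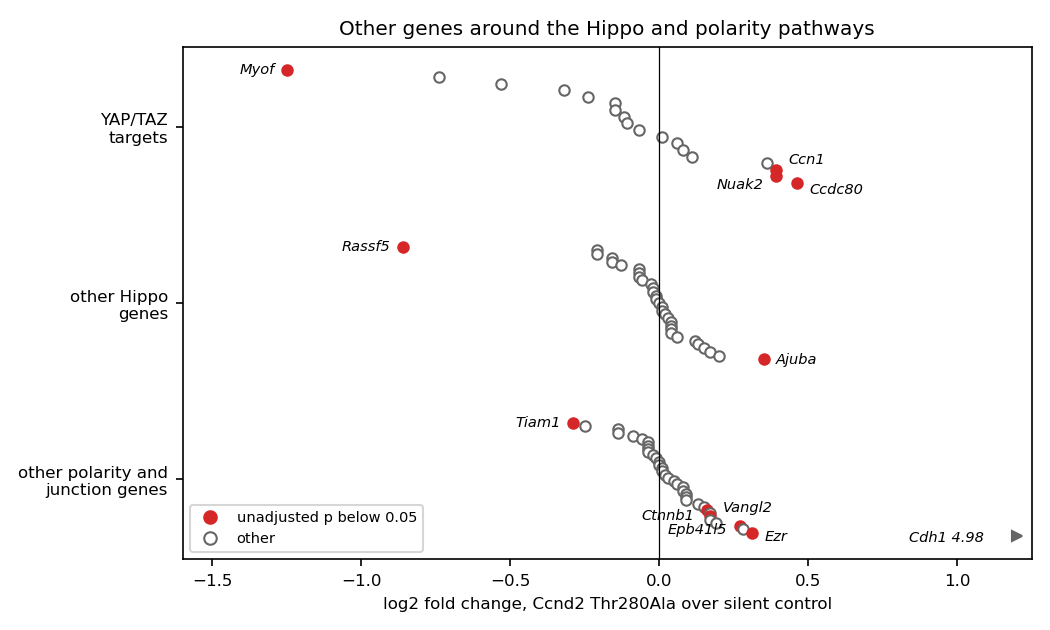
Log2 fold change, edited over silent control, of genes that are not among the 40, in 3 lists from top to bottom, each gene a circle ordered by its value. Filled circles have an unadjusted p below 0.05, and none passed the adjusted threshold. Cdh1, at 4.98 with an SE of 3.69, lies beyond the right edge and is drawn as a triangle.

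The Crumbs genes had the largest values among the polarity members. Crumbs proteins are transmembrane organisers of the apical domain, and loss of Crb2 in mouse forebrain is known to affect progenitors. Crb2, on chromosome 2 (37776249 to 37799103, plus strand, GRCm38), had 614 normalized counts and stood at 0.55 (SE 0.16, 95% interval 0.23 to 0.87) in the deposited table. This is 1.46-fold, with an interval of 1.17-fold to 1.83-fold. Its p ranked 78 of 14638, from the smallest, and the DESeq2 adjusted p of 0.154 in the deposited table did not pass. Crb1, at 102 normalized counts, stood at 0.57 (SE 0.33, 95% interval -0.07 to 1.21, DESeq2 adjusted p = 0.925) in the deposited table. Crb3, the family's epithelial member, was under the minimum and stood at 0.44 (SE 1.30) there. Per kb of exon Crb2 led with 91.7 normalized counts, against 7.07 for Crb1.

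Markers of apical radial glia, the cells in which Crb2 sits, also stood mostly above 0. Of 12 such markers 10 were above 0, with a median log2 fold change of 0.20 and 5 higher at an unadjusted p under 0.05. Of those 5, Sox9 stood at 0.39 (SE 0.14) and Vim at 0.20 (SE 0.09) in the deposited table. The 2 below 0 were Fabp7 at -0.20 (SE 0.13) and Slc1a3 at -0.03 (SE 0.11). Pax6 stood at 0.12 (SE 0.11) and Sox2 at 0.38 (SE 0.32). All 8 markers of intermediate progenitors were above 0, with a median of 0.20 and 4 higher at an unadjusted p under 0.05. Of 9 neuron markers 7 were below 0, with a median of -0.06 and 3 lower at an unadjusted p under 0.05. Among all tested genes 2.20% were higher and 3.66% lower at that p, and no marker of these 3 types passed the adjusted threshold. The part of cell composition in the value of Crb2 was not tested.

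The PAR complex consists of the scaffold PAR3, the adaptor PAR6 and an atypical protein kinase C. Of its 7 genes 6 lay above 0, with a median log2 fold change of 0.05. An unadjusted p under 0.05 in the deposited DESeq2 run was reached by 0 of 7, against 5.86% of all tested genes. Here too the genes are too few for a count of 0 to set the complex apart. Pard3 encodes PAR3 and had 1671 normalized counts. It stood at 0.15 (SE 0.15, 95% interval -0.15 to 0.45, DESeq2 adjusted p = 0.999) in the deposited table. Its relative Pard3b stood at 0.05 (SE 0.21) in the same table.

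The 3 PAR6 genes all lay above 0, and Pard6g had most RNA per length. Pard6g had 495 normalized counts per kb, Pard6a 281 and Pard6b 139. Pard6b stood at 0.23 (SE 0.15, 95% interval -0.06 to 0.52, DESeq2 adjusted p = 0.952), Pard6a at 0.04 (SE 0.14) and Pard6g at 0.05 (SE 0.08) in the deposited table. The kinase genes lay on opposite sides of 0. Prkci, encoding the iota form, stood at 0.05 (SE 0.08, 95% interval -0.11 to 0.21), and Prkcz, encoding the zeta form, at -0.16 (SE 0.11, 95% interval -0.37 to 0.05, DESeq2 adjusted p = 0.968) in the deposited table. Their intervals overlap, and a difference between the 2 genes was not tested. Counts for Prkcz do not separate its brain transcript, which encodes the constitutively active kinase PKM zeta, from the full-length form.

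The Scribble module opposes the apical complexes from the basolateral side. All 3 genes lay above 0. Llgl1, a substrate of atypical protein kinase C, had the highest level per length of all 40, at 1240 normalized counts per kb, and lies on chromosome 11 (60699723 to 60714186, plus strand, GRCm38). It stood at 0.16 (SE 0.08, 95% interval 0.00 to 0.32, DESeq2 adjusted p = 0.835) in the deposited DESeq2 table, or 1.12-fold. Scrib stood at 0.12 (SE 0.11, 95% interval -0.09 to 0.32) and Llgl2 at 0.54 (SE 0.67) in the same table. Llgl2, at 3.63 normalized counts per kb, was the lowest of the members.

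**Figure D4:**
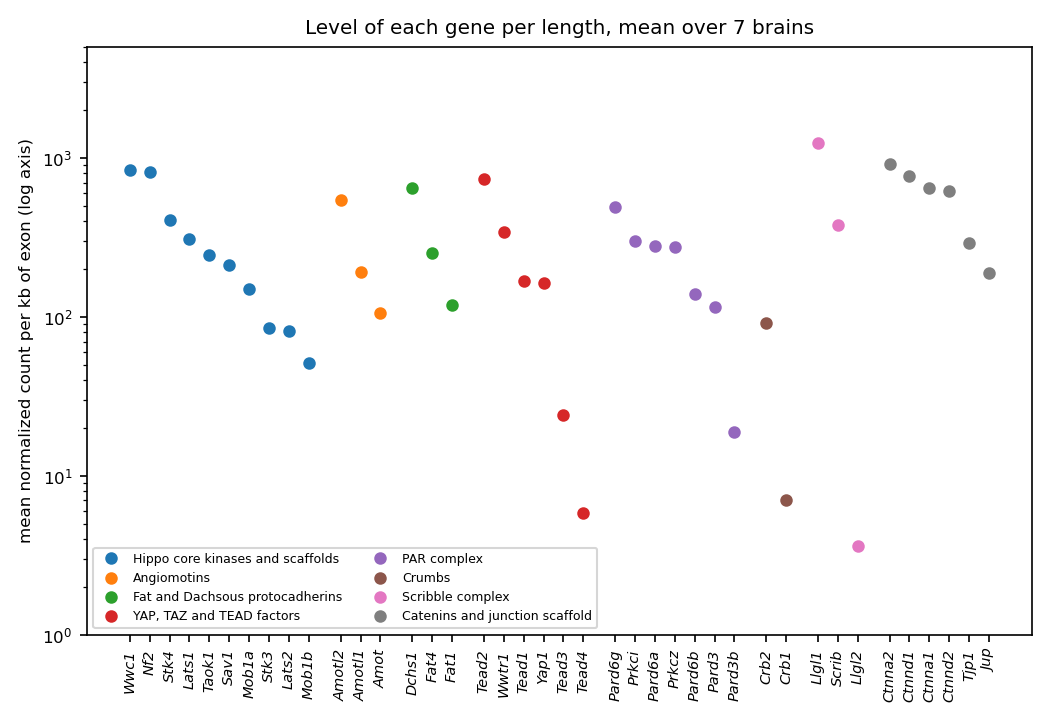
Mean normalized count per kb of merged exon over the 7 brains, on a log axis, for each of the 40 genes, ordered within its role group. Llgl1 is highest at 1240 per kb and Llgl2 lowest at 3.63. Within the TEAD genes the order is Tead2, Tead1, Tead3 and Tead4.

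Catenins tie cadherins to actin. Of the 4 alpha and delta catenin members, Ctnna1 and Ctnnd1 lay above 0, and Ctnna2 and Ctnnd2 lay close to 0. Ctnna1, encoding alpha-E-catenin, stood at 0.14 (SE 0.10, 95% interval -0.05 to 0.33, DESeq2 adjusted p = 0.968) in the deposited table. Ctnna2, encoding the neural alpha-N-catenin, stood at -0.02 (SE 0.09, 95% interval -0.19 to 0.15) there. Of the p120 family, Ctnnd1 stood at 0.11 (SE 0.08, DESeq2 adjusted p = 0.968) and the neural Ctnnd2 at -0.04 (SE 0.08) in the deposited table. None of these passed the test, the intervals within each pair overlap, and the difference within a pair was not tested. Exons shared with another gene model on the same strand cover 61.2% of the length of Ctnnd1. Jup, encoding plakoglobin, stood at -0.14 (SE 0.10, DESeq2 adjusted p = 0.971) and the tight junction scaffold gene Tjp1, encoding ZO-1, at -0.01 (SE 0.13) in the deposited table. The 4 alpha and delta catenin genes were all abundant, from 621 normalized counts per kb for Ctnnd2 to 914 for Ctnna2.

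Other polarity and junction genes also lay on both sides of 0. All 36 listed reached a mean of 10 normalized counts. Of these 22 lay above 0 and 14 below, and their median was 0.04 on the log2 scale. By the deposited DESeq2 values 0 of 36 passed the test and 5 had an unadjusted p under 0.05, 4 higher and 1 lower. The share over all tested genes was 5.86%. Ctnnb1, encoding beta-catenin, stood at 0.16 (SE 0.06, DESeq2 adjusted p = 0.286) with 41741 normalized counts in the deposited table. Ezr, which encodes the apical membrane linker ezrin, stood at 0.31 (SE 0.12, DESeq2 adjusted p = 0.432) there. Vangl2, a planar polarity gene, stood at 0.17 (SE 0.07, DESeq2 adjusted p = 0.493) in the deposited table. Tiam1, an activator of RAC1 that binds PAR3, was the gene on the lower side, at -0.29 (SE 0.09, DESeq2 adjusted p = 0.224) in the same table. Cdh2, the main cadherin of the apical belt, stood at 0.06 (SE 0.05, 95% interval -0.04 to 0.16) there.

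Several Hippo genes are also expressed outside the neuroepithelium, so markers of those cells are given for the same comparison. The 8 endothelial markers all lay below 0 (median -0.32 on the log2 scale), and 2 had an unadjusted p under 0.05. The 8 microglial markers did as well (median -0.64), with 5 at an unadjusted p under 0.05. So did 7 of 9 meningeal fibroblast markers (median -0.80, median SE 1.16) and 4 of 5 pericyte markers (median -0.32). At an unadjusted p under 0.05 there were 1 and 0 of these. All 7 choroid plexus and hem markers with a mean of at least 10 were above 0, with 4 higher at an unadjusted p under 0.05. Their median was 2.64, with a median SE of 1.09. Ttr stood at 5.3 (SE 2.17), and Rspo3, which had the smallest SE, at 0.16 (SE 0.15). Over all tested genes 2.20% were higher and 3.66% lower at that p. None of these markers passed the authors' deposited DESeq2 test. Their part in the values of Wwtr1, Lats2, the TEAD genes or the target genes was not tested.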

How the data were processed

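The labels' protocols give RNeasy extraction and enrichment of polyadenylated RNA. The submitters' processing notes name mm10, cutadapt, featureCounts and DESeq2. Aligner, annotation and strandedness were not given in the sources used here. Genes that overlap on either strand may therefore share reads. The mean normalized count is a signal in the authors' deposited table, averaged over 7 libraries after scaling to size factors. Log2 fold changes and their SEs are as the authors deposited them. The deposited Wald score equals the log2 fold change with its sign turned round over its SE to within 3.92e-08. Each gene's p-value and adjusted p-value come from the authors' deposited DESeq2 run. The lowest mean with an adjusted p-value was 7.08 normalized counts. Adjusted p-values exist for 14638 of 18976 genes with a p-value, and were recomputed to within 4.01e-05.

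The sign was settled from 694 genes with a single read in 1 library, which formed 7 classes, 3 positive and 4 negative. With positive meaning higher in edited brains, a litter and treatment model of negative binomial counts matched all classes within 2.99e-05. With treatment only it was off by up to 0.194, and the opposite sign allowed 0 assignments. The classes also gave the size factors, which with a summed mean of 25100000 normalized counts gave the estimated depths. Brains are separate embryos, and the deposited p-values cover the spread left after litter and treatment. With the size factors the deposited SE was turned into a coefficient of variation, on the assumption that expected counts were equal across brains.

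No refit was possible without counts. Levels per kb use merged exons of GENCODE M21 (GRCm38). All values were computed with Python 3.11.15 and pandas 2.3.3. The members, the lists, the role groups and the rule for named genes were chosen with earlier results of these data known. That rule gives full values to members with an unadjusted p below 0.05, the 3 with the smallest p in each role group, and Yap1, Wwtr1 and Pard3. In each other list it takes up to 4 genes with the smallest p. Ccn2, Cdh1 and Cdh2 were added after their values were seen. Of the markers, Fabp7, Slc1a3, Pax6, Sox2 and Rspo3 were also named outside that rule. Some markers with a smaller p, such as Aldoc and Folr1, were given no values. Protein sequences were not used here. The alternatives changed the adjustment, the threshold, the minimum and the centring.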

Additional observations from a re-analysis of the deposited data

How the results depend on the processing

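No member passed the test under any alternative that was run. These were adjustment over every gene with a p-value, a threshold of 0.1, a minimum of 100 normalized counts and no minimum. The changes of minimum reuse the deposited adjusted p-values, so they could not add a pass. Adjustment over every gene raised the adjusted DESeq2 p of Crb2 from 0.154 to 0.2. The threshold of 0.1 was the looser setting. The count at an unadjusted p under 0.05 stayed at 2, and a change of minimum leaves each p-value as it is. Subtracting the median log2 fold change of all tested genes (-0.006) or of genes with a mean of at least 1000 (0.022) turned the sign of 0 members. Of 401 alternative values for the members, role groups and lists, 396 kept their size within the limits set. The other 5 were counts of other genes and markers, such as 1 in place of 2 other Hippo genes at an unadjusted p under 0.05 with a minimum of 100. Many of the 401 had little or no room to move. A member's centred fold change counted as kept if the centring was smaller than its SE, which held for every member beforehand. The tally is therefore no measure of robustness. The deposited fit matched a model with litter as a term, so its values already account for litter. No paired analysis was possible because a further fit, with or without that term, needs values per library. For the same reason no library could be left out, so no value can be tied to or freed from a single brain. Low counts widen the intervals of Tead4, Llgl2, Crb1 and Tead3.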

Other observations

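The wide error of Fat4 and Fat1 was shared by the remaining abundant gene of the family. Fat3, with 2763 normalized counts, stood at -0.21 (SE 0.30) in the authors' deposited table, and its SE was 3.50 times the median for its mean. Fat2, at 8.34 normalized counts, was under the minimum. The related Dchs2, at 33.0 normalized counts, had a ratio of 1.17. Besides Fat3, the genes in the 3 lists of targets, other Hippo genes and other polarity genes with ratios above 1.5 were Cdh1, the epithelial cadherin gene, at 5.18 with only 16.2 normalized counts, the target genes Igfbp3 at 1.86 and Ptpn14 at 1.80, Vcl, which encodes vinculin, at 1.55, and the scaffold gene Dlg2 at 1.54. These were chosen after their values were seen.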
